A study of Medicago truncatula with 9 samples.

Results

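Seeds of the Tnt1 insertion line hsfa9-1 (NF10440) of the legume Medicago truncatula were set against seeds of the wild type R108, and all expressed loci were followed across 3 libraries of each genotype. These are 6 of the 9 libraries of the study, and the other 3 come from another insertion line, hsfa9-2 (NF13157). Members were all loci that reached 1 FPKM in 3 or more of the 9 libraries, which took 17508 of 36695 loci. FPKM, a fragment count per length of transcript and per library size, was added up over all transcript models of a locus. Both genotypes were sampled as mature dry seeds with no treatment, each library from 50 seeds of different plants per the labels. Growth was under 16 h of light at 20 °C and 19 °C, harvested pods were dried at a relative humidity of 43%, and seed storage was at 20 °C. The mutant is in the R108 background and carries a Tnt1 retrotransposon insertion in HSFA9 by its name, while R108 is the line without that insertion. It is a single line, lines of such collections usually carry further insertions elsewhere, and backcrossing is not given in the labels. HSFA9 appears in no description of the table, so its own level could not be used to check the genotype labels.

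Heat stress transcription factors bind repeated GAA blocks in promoters and are best known for switching on chaperone genes when cells are heated. HSFA9 is a family member known for its expression in seeds, where it acts late in embryo development downstream of the abscisic acid pathway, as worked out mainly in sunflower and Arabidopsis. A mature dry seed stores transcripts made during maturation, among them those for late embryogenesis abundant (LEA) proteins, storage globulins, oligosaccharide synthesis and small heat shock proteins.

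The libraries of a genotype were closely alike. Pearson's r of log2(FPKM + 1) across tested loci, which are not independent replicates, was 0.991 to 0.992 among hsfa9-1 libraries, 0.992 to 0.993 among R108 libraries and 0.914 to 0.918 between the genotypes. Summed FPKM ranged between 922986 and 958399 per hsfa9-1 library and between 922801 and 966810 per R108 library, and no library stood apart. The median SD between libraries was 0.107 on the log2(FPKM + 1) scale in either genotype. Markers of the mature embryo (LEA proteins, dehydrins, oleosins and storage proteins by their descriptions) summed to between 75649 and 89418 FPKM in hsfa9-1 and between 68935 and 75752 FPKM in R108. These ranges overlapped slightly, and without the leading pair of loci the sums were lower in the mutant, with 45083 to 53076 FPKM in hsfa9-1 and 56360 to 62939.9 FPKM in R108. Pollen words summed to between 436 and 489 FPKM in hsfa9-1 and between 349 and 409.9 FPKM in R108. These sums overlapped without the leading pair, at 59.9 to 74.0 FPKM in hsfa9-1 and 56.8 to 63.5 FPKM in R108. Of the 26 loci, 17 were under 1 FPKM in all 6 libraries, and 4 of 9 tested loci rose and none fell. Nodule words summed to between 2179.6 and 2472 FPKM in hsfa9-1 and between 858 and 1055 FPKM in R108, and without the leading pair to between 130.1 and 149 FPKM in hsfa9-1 and between 177 and 197 FPKM in R108, while 7 of 14 tested loci rose and 4 fell. Green tissue words summed to between 3184 and 3828 FPKM in hsfa9-1 and between 4074 and 4414 FPKM in R108. Without the leading pair these sums overlapped, at 2539 to 3300.4 FPKM in hsfa9-1 and 3008 to 3282 FPKM in R108. Green tissue words had 20 of 79 tested loci higher (25.3%) and 26 lower (32.9%), and 21 each way after median centring. For all these counts, the background over all tested loci was 27.6% higher and 31.9% lower, and green tissue words lay near it. In RNA from whole seeds, fewer cells of a type and less RNA per cell cannot be told apart.

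Most of the tested seed transcripts changed in hsfa9-1, in nearly balanced numbers and mostly by modest amounts. Of 17508 loci, 10412 (59.5%) had an adjusted p under 0.05 in limma, with 4828 (27.6%) higher and 5584 (31.9%) lower. After median centring of the libraries, which moved the median change by 0.07, the balance was 5531 higher and 4888 lower. A change here is the difference of mean log2(FPKM + 1), hsfa9-1 minus R108, and its median over all tested loci was −0.04. Its lower and upper quartiles were −0.43 and 0.35. A size of at least 1 was reached by 1340 higher loci (7.65%) and 1483 lower loci (8.47%). The count of loci of that size depends on the pseudocount, with 2823 at the value of 1 used here, 3880 at 0.1 and 1414 at 5. At least 3 was reached by 85 higher and 104 lower loci, and at least 5 by 6 higher and 13 lower loci. All 3 hsfa9-1 libraries lay outside the range of the R108 libraries for 11753 loci (67.1%), above it for 31.0% and below it for 36.1% of tested loci.

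The direction went with abundance. Among the 92 loci with a mean of at least 1000 FPKM in R108, 54.3% were lower and 19.6% higher in hsfa9-1, with a median change of −0.28. Among the 1677 loci between 100 and 1000 FPKM, 46.2% were lower and 20.7% higher. Between 1 and 10 FPKM, where 7180 loci lay, the shares were 27.3% lower and 24.7% higher. The R108 levels enter both these bins and the change. The 1182 loci with a mean under 1 FPKM in R108 entered the test largely through the mutants, so that their share of 57.4% higher follows from the filter.

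**Figure D1:**
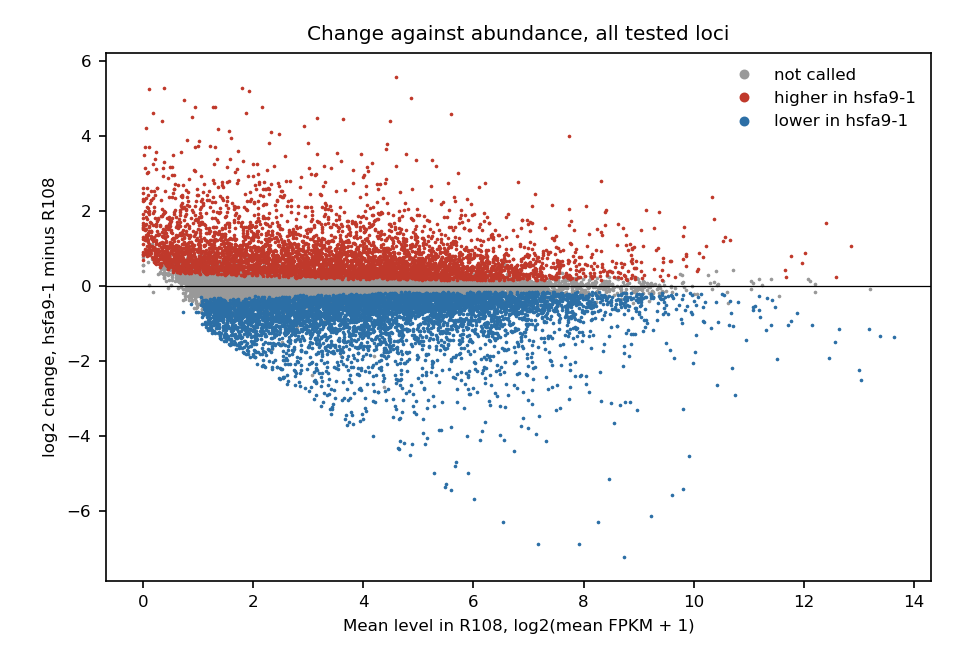
Change of each of the 17508 tested loci (vertical axis, log2 change, hsfa9-1 minus R108) against its mean level in R108 (horizontal axis, log2(mean FPKM + 1)). Red points are called higher, blue points lower and grey points not called. Falls reach −7.21 and rises 5.58, and loci near 0 on the horizontal axis are nearly all above the zero line because of the filter on low values.

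A small set of transcripts kept only a small fraction of its wild-type level in the mutant seeds. Of the loci with a mean of at least 20 FPKM in R108, 28 had at most a 20th of that level in every hsfa9-1 library, and 24 met the mirror condition. These sets were chosen by their values and carry no test of their own. The locus Medtr8g028265, a BAG domain protein of the kind that regulates HSP70, had 1.85, 1.63 and 2.18 FPKM in hsfa9-1, against 417, 417 and 442 FPKM in R108. The sugar transporter Medtr1g029380, of the bidirectional type that moves sugars across membranes, had 3.01, 3.12 and 2.7 FPKM in hsfa9-1, compared with 262, 316 and 342 FPKM in R108. The uridine kinase/uracil phosphoribosyltransferase Medtr4g103620, an enzyme of pyrimidine salvage, had 0.12, 0.080 and 0.16 FPKM in hsfa9-1, and 45.3, 48.5 and 47.7 FPKM in R108. The changes of these 3 loci were −7.21, −6.28 and −5.43, with SE of 0.54, 0.53 and 0.29. The hsfa9-2 libraries enter the shared estimate of spread, and the first of them had 21.5 FPKM of Medtr8g028265, beside 2.70 and 3.28 FPKM in the others.

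Other loci of this set held varied functions, and several were small heat shock proteins. The class II locus Medtr3g104780 had 11, 16.45 and 20.3 FPKM in hsfa9-1, against 679, 895 and 761 FPKM in R108. Medtr8g022720, also class II, had 0.13, 0.39 and 0.13 FPKM in hsfa9-1, against 118, 160 and 149 FPKM in R108. Medtr3g092460, Medtr3g052760 and Medtr5g064060 met the same condition. Over the whole family, given below, 24 of 37 tested loci fell and 7 rose. The blue copper-like protein Medtr6g013420 had 0.21, 0.22 and 0.11 FPKM in hsfa9-1, against 38.5, 49.2 and 45.7 FPKM in R108. The CCT motif protein Medtr7g032240, of a family with regulators of flowering and clock, had 0.21, 0.21 and 0.26 FPKM in hsfa9-1, compared with 42.2, 34.7 and 37 FPKM in R108. The glyoxalase I family locus Medtr4g114080, an enzyme type that detoxifies methylglyoxal, had 0.80, 0.81 and 1.03 FPKM in hsfa9-1, and 53.7, 52.4 and 69.1 FPKM in R108. The blue copper-like, CCT motif and glyoxalase I loci were near or below 1 FPKM in each mutant library. In each R108 library they were far above it, and their changes were −5.26, −4.98 and −4.97. Among tested loci, 20 were listed at 0 in all hsfa9-1 libraries, 16 of them with at least 1 FPKM in all R108 libraries. One was the GASA/GAST/Snakin locus Medtr1g025250, with 4.67, 1.62 and 4.5 FPKM in R108. Another was the aluminium-activated malate transporter Medtr2g087285, with 9.35, 9.37 and 10.4 FPKM in R108. In the other direction, 23 tested loci were listed at 0 in all R108 libraries, 13 of them with at least 1 FPKM in all hsfa9-1 libraries.

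The loci that met the mirror condition, with far more transcript in the mutant, included enzymes of flavonoids, suberin and walls. The flavonol synthase/flavanone 3-hydroxylase locus Medtr4g093840 had 1127, 1065 and 1228 FPKM in hsfa9-1, against 24.9, 18.9 and 25.5 FPKM in R108. For the omega-hydroxypalmitate O-feruloyl transferase Medtr8g096530, which acts on suberin-type precursors, the levels were 146, 126 and 125 FPKM in hsfa9-1, compared with 2.08, 2.49 and 2.81 FPKM in R108. The xyloglucan endotransglucosylase/hydrolase Medtr4g128410, a type of enzyme that remodels xyloglucan in walls, had 53.9, 47.6 and 45.3 FPKM in hsfa9-1, and 0.14, 0.54 and 0.21 FPKM in R108. Each mutant library exceeded each R108 library by a wide margin at these loci, with changes of 5.58 (adjusted p = 8.08e-10), 5.27 (adjusted p = 7.89e-10) and 5.28 (adjusted p = 2.33e-09). Further rises of this kind were a sulfotransferase (Medtr3g013500), with 280.0, 249 and 269 FPKM in hsfa9-1, against 10.5, 12.8 and 10.8 FPKM in R108, and a derlin-2 protein (Medtr3g408340), of a family that extracts misfolded proteins from the endoplasmic reticulum, with 63.5, 64.5 and 62.6 FPKM in hsfa9-1, compared with 0.94, 1.87 and 1.42 FPKM in R108. The mutant and R108 ranges of both lay far apart, and their changes were 4.44 and 4.76. Medtr4g128410 was under 1 FPKM in every R108 library and entered the test through the mutants.

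The seed coat marker words, which include flavonol synthase, summed to between 1414 and 1585 FPKM in hsfa9-1 and between 129 and 133 FPKM in R108. Without the leading pair of loci, Medtr4g093840 and Medtr5g011250, the sums were 51.8 to 57.3 FPKM in hsfa9-1 and 84.7 to 91.6 FPKM in R108. Of the 28 loci with these words, 4 were listed at 0 in all 6 libraries and 11 were tested, of which 6 rose and 4 fell. Words for lignified coat or pod summed to between 276 and 303 FPKM in hsfa9-1 and between 125 and 140.2 FPKM in R108, with 8 of 37 loci at 0 throughout, and 3 of 12 tested loci rose and 5 fell. Without their leading pair the sums were 84.5 to 100 FPKM in hsfa9-1 and 103 to 112.5 FPKM in R108. Over all tested loci 27.6% rose and 31.9% fell. The part of coat tissue in the rises above was not tested.

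An AP2 domain transcription factor was among the 10 largest gains of FPKM in the mutant. Medtr1g023170, of the plant family that includes ethylene-response and floral regulators, had 3452, 3366 and 3328 FPKM in hsfa9-1, and 199, 193 and 243 FPKM in R108 (log2 change 4.0, SE 0.09, adjusted p = 1.07e-09). The NAC factor Medtr2g079990 had 68.9, 58 and 71.3 FPKM in hsfa9-1, against 10, 7.58 and 8.99 FPKM in R108 (log2 change 2.77, adjusted p = 5.07e-08). A B3 domain protein, Medtr2g102450, of the domain class that ABI3-type seed regulators also carry, had 43.8, 38.5 and 39.6 FPKM in hsfa9-1, compared with 8.78, 9.74 and 8.01 FPKM in R108 (log2 change 2.08, adjusted p = 6.48e-08). The libraries of each genotype were close together at these loci and the genotypes did not overlap.

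Regulators also fell, a bZIP and a homeobox locus to levels at or near 0. The C2H2 zinc finger locus Medtr1g054450 had 8.09, 9.56 and 9.23 FPKM in hsfa9-1, and 328, 344 and 384 FPKM in R108 (log2 change −5.15, SE 0.28, adjusted p = 1.32e-07). The bZIP factor Medtr4g097440 had 0, 0 and 0.22 FPKM in hsfa9-1, against 7.42, 9.28 and 11.7 FPKM in R108. The homeobox leucine zipper locus Medtr5g039000 had 0, 0 and 0.070 FPKM in hsfa9-1, compared with 8.76, 9.73 and 6.62 FPKM in R108. The WRKY factor Medtr7g109800 had 1.2, 1.34 and 1.2 FPKM in hsfa9-1, and 13.8, 14.1 and 14.3 FPKM in R108 (log2 change −2.75, adjusted p = 4.34e-08). In all of these the mutant libraries were lower without overlap, and for the bZIP and homeobox loci 2 of 3 mutant libraries were listed at 0.

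By family, WRKY factors leaned upward, with 17 of 31 tested loci higher, 5 lower and a median change of 0.35. Homeobox factors had 27 higher and 15 lower of 61 (median 0.19), GRAS factors 12 and 6 of 25 (median 0.25), and bHLH factors 17 and 10 of 45 (median 0.15). B3 domain proteins had 5 higher and 3 lower of 14. MYB factors had 40 higher and 37 lower of 124, and 44 higher and 31 lower after median centring. NAC factors had 9 higher and 9 lower of 27 in either scaling. C2H2 zinc finger proteins had 10 and 10 of 28, with 10 higher and 8 lower after median centring, and bZIP factors 18 higher and 19 lower of 51, which turned to 19 higher and 18 lower. For comparison, 27.6% of all tested loci were higher and 31.9% lower, with a median of −0.04.

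Among the 18 tested heat stress transcription factors themselves, 8 fell (44.4%) and 4 rose (22.2%), against 31.9% and 27.6% of all tested loci. After median centring 8 fell and 8 rose. Their median change was 0.09 and their mean −0.44, of opposite sign. Medtr5g089170, described without a class, had 0.070, 0.37 and 0.15 FPKM in hsfa9-1, against 10.5, 13.6 and 11.5 FPKM in R108 (log2 change −3.43, adjusted p = 1.54e-07). Medtr1g100777, described as B2A, had 117, 145 and 157 FPKM in hsfa9-1, compared with 348, 367 and 343 FPKM in R108 (log2 change −1.34, adjusted p = 1.05e-06), and Medtr4g077970, described as A3, had 170.0, 159 and 146 FPKM in hsfa9-1, and 97.1, 87.2 and 94.3 FPKM in R108 (log2 change 0.76, adjusted p = 6.43e-06). So within this family the mutant was lower at the first pair of loci and higher at the last, each without overlap. Of the loci described as A3, the factors Medtr1g061170 and Medtr3g104550 fell (both −1.28), Medtr4g077970 rose (0.76) and Medtr5g029680 was not called at a change of 0.05. The 3 loci described as B2A all fell, by 0.76, 0.84 and 1.34 on the log2 scale. No locus described as A8 fell, and Medtr8g083100 rose with 42, 39.1 and 40.4 FPKM in hsfa9-1, against 21.7, 21.3 and 21.4 FPKM in R108 (log2 change 0.89, adjusted p = 7.18e-07).

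**Figure D2:**
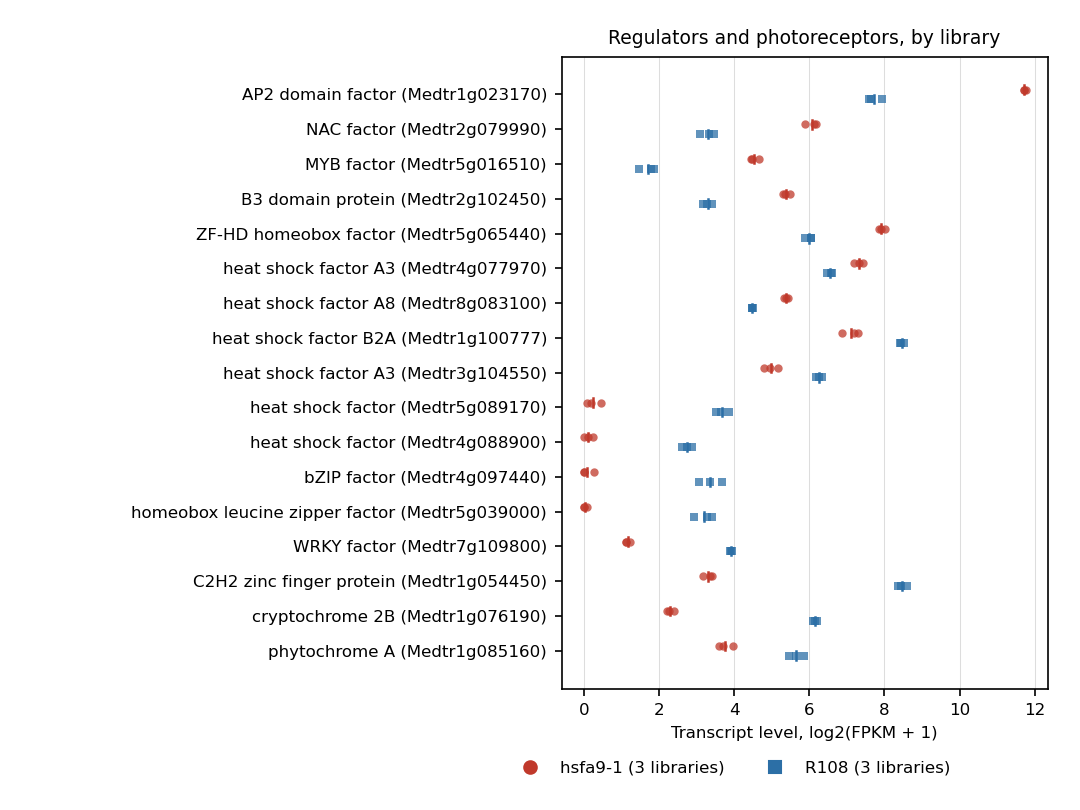
Level of 17 regulator and photoreceptor loci in each library, as log2(FPKM + 1) on the horizontal axis, with hsfa9-1 (red circles) drawn above R108 (blue squares) for each locus and a short bar at the mean of 3 libraries. Genotypes do not overlap at any of these loci, and Medtr1g023170 has the highest mutant level, 3328 to 3452 FPKM.

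More chaperone loci fell than rose. Of 37 tested small heat shock proteins, which keep unfolding proteins from aggregating, 24 fell (64.9%) and 7 rose (18.9%), against 31.9% and 27.6% of all tested loci, with a median change of −1.53. Their summed level was 8617 ± 839 FPKM in hsfa9-1 and 7665 ± 499 FPKM in R108 (SD, n = 3 each), with ranges that overlapped. Of 60 chaperones of the HSP60, HSP70, HSP90 and HSP100 kinds, 30 fell (50.0%) and 16 rose (26.7%), with a median of −0.26 and a summed level of 7842 ± 275 FPKM in hsfa9-1 and 9047 ± 68.1 FPKM in R108 (SD, n = 3 each). The HSP70 locus Medtr5g006180 had 0.85, 1.3 and 1.05 FPKM in hsfa9-1, compared with 222, 265 and 237 FPKM in R108 (log2 change −6.88, adjusted p = 8.07e-07). The disaggregase ClpB (Medtr4g109450) had 834, 894 and 872 FPKM in hsfa9-1, and 329, 331 and 296 FPKM in R108 (log2 change 1.44, adjusted p = 8.84e-08). A chaperonin-like RbcX protein (Medtr3g061630), a type known to help assemble Rubisco, had 34.7, 41.2 and 40.7 FPKM in hsfa9-1, against 2.13, 3.99 and 3.52 FPKM in R108 (log2 change 3.26, adjusted p = 1.64e-07). The mutant was far lower at the HSP70 locus and higher at both others, without overlap. Among 10 tested loci with BAG words, a subgroup taken after the values were seen, 5 fell and 4 rose, and BAG family regulator 5 (Medtr2g025690) rose by 1.70 with 52.5, 42.9 and 51.5 FPKM in hsfa9-1, compared with 13.3, 15.2 and 14.6 FPKM in R108. Similar small heat shock proteins may share reads, and how the authors' quantification assigned such reads is not given.

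Transcripts for breakdown of abscisic acid and most of those for light perception were lower in hsfa9-1. Subgroups in this and the next paragraphs were cut from the lists after the values were seen and are descriptions. Both tested ABA 8'-hydroxylases, the cytochrome P450 enzymes that start the breakdown of abscisic acid, fell. Medtr1g037580 had 54.4, 58.2 and 57.2 FPKM in hsfa9-1, and 145, 144 and 159 FPKM in R108 (log2 change −1.38, adjusted p = 1.46e-07), and Medtr4g086040 had 1.63, 1.96 and 2.05 FPKM in hsfa9-1, against 20.1, 24.7 and 21.9 FPKM in R108 (log2 change −3.01, adjusted p = 1.43e-08). The mutant libraries held less of both in every case, and the other 4 loci with this description were not tested because of low values. Of 8 tested photoreceptor loci, 6 fell and 2 were not called, with none higher.

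The blue light receptor cryptochrome 2B (Medtr1g076190) had 4.32, 3.61 and 3.86 FPKM in hsfa9-1, compared with 73.2, 67.4 and 70.1 FPKM in R108 (log2 change −3.85, SE 0.12, adjusted p = 5.35e-09). Phytochrome A (Medtr1g085160), the far-red sensor of seeds and seedlings, had 14.7, 12.2 and 11.1 FPKM in hsfa9-1, and 57.4, 42.8 and 49.6 FPKM in R108 (log2 change −1.9, adjusted p = 7.40e-07). Phytochrome B (Medtr2g034040), which is known for red light control of germination, had 14, 13.1 and 12.8 FPKM in hsfa9-1, against 12.7, 11.8 and 12.1 FPKM in R108 (log2 change 0.12, adjusted p = 0.273). So the mutant was lower at cryptochrome 2B and phytochrome A without overlap, while at phytochrome B its libraries were slightly higher without passing the test. Over the whole list of light signalling and clock loci, 9 rose (25.7%) and 13 fell (37.1%) of 35, with a median of −0.04. Of all tested loci 27.6% rose and 31.9% fell.

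Seed maturation products moved both ways, and the most abundant transcripts of the seed were among them. A dehydrin (Medtr6g084640), one of the proteins that accumulate as tissues dry, had 16770.2, 17135 and 18199.9 FPKM in hsfa9-1, compared with 5588, 5039 and 5576 FPKM in R108 (log2 change 1.69, SE 0.14, adjusted p = 2.20e-06). The seed maturation protein Medtr7g093170 had 6088, 5727 and 7985 FPKM in hsfa9-1, and 1079, 1488 and 1275 FPKM in R108 (log2 change 2.36, adjusted p = 1.43e-06). In contrast, the LEA locus Medtr4g120040 had 4123, 4087 and 4491 FPKM in hsfa9-1, against 10676, 10908 and 10497 FPKM in R108 (log2 change −1.34, adjusted p = 3.04e-06). The mutant was higher in the first pair and lower in the last, with no overlap. A group 3 LEA protein (Medtr4g011230) rose by 1.07 and another (Medtr4g123950) changed by −1.03. Of 60 tested loci with embryo marker words, 23 rose and 24 fell, with 25 rises and 21 falls after median centring, and their median change was −0.07.

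In terms of mean FPKM over all loci, tested or not, hsfa9-1 gained 192625 at 14932 loci and lost 205106 at 16715 loci. Of these, 87 loci made up 50% of the gain and 124 loci 50% of the loss. Other large gains included oleosin Medtr6g005040, an oil body coat protein, with 3736, 3319.7 and 4132 FPKM in hsfa9-1, compared with 1237, 1769.7 and 1557 FPKM in R108. They also included the aquaporin Medtr6g069040, with 4038, 3619 and 3721 FPKM in hsfa9-1, and 1538, 1686 and 1639.6 FPKM in R108. At both loci every mutant library was above every R108 library. The largest loss among described loci was that of myo-inositol oxygenase (Medtr8g015220), which opens the route from inositol to wall sugars, with 4605, 5609.5 and 4624 FPKM in hsfa9-1, against 12772, 11395 and 13902 FPKM in R108 (log2 change −1.36, SE 0.13, adjusted p = 7.91e-06). Next came a galactinol-raffinose galactosyltransferase (Medtr7g091880), the enzyme that makes stachyose, with 1468, 1561 and 1441 FPKM in hsfa9-1, compared with 8335, 8109 and 8698 FPKM in R108 (log2 change −2.49, adjusted p = 6.40e-08). The papain family cysteine protease Medtr1g094135 had 1343, 1519 and 1609.6 FPKM in hsfa9-1, and 5450.0, 5512 and 5861 FPKM in R108 (log2 change −1.91, adjusted p = 4.01e-08). These 3 losses were without overlap of the genotypes.

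Galactinol-raffinose galactosyltransferases summed to 2087 ± 30.7 FPKM in hsfa9-1 and 8882 ± 298 FPKM in R108 (SD, n = 3 each). Of the 5 tested loci 4 fell, while Medtr3g077280 rose, with 491, 446 and 504 FPKM in hsfa9-1, against 214, 213 and 217 FPKM in R108 (log2 change 1.15, adjusted p = 1.32e-07). The shares over all tested loci were 31.9% lower and 27.6% higher. Galactinol synthase, which supplies the galactosyl donor, did not share the fall. The abundant locus Medtr7g109920 had 3015, 3060.0 and 3195 FPKM in hsfa9-1, compared with 2667, 2661 and 2762 FPKM in R108 (log2 change 0.2, adjusted p = 0.0563), and the minor locus Medtr7g111850 rose by 1.25.

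More loci of starch synthesis and sucrose synthase fell than rose, and more trehalose loci rose than fell. The ADP-glucose pyrophosphorylase locus Medtr4g070430 (glucose-1-phosphate adenylyltransferase), which makes the building block of starch, had 4.27, 4.22 and 3.61 FPKM in hsfa9-1, and 107, 99 and 109.8 FPKM in R108 (log2 change −4.4, SE 0.18, adjusted p = 2.04e-08). Starch synthase 2 (Medtr3g091570) had 16.9, 20 and 18.7 FPKM in hsfa9-1, against 135, 129.8 and 132 FPKM in R108 (log2 change −2.77, adjusted p = 1.44e-07), and soluble starch synthase III-1 (Medtr2g023320) had 3.83, 4.83 and 3.69 FPKM in hsfa9-1, compared with 33.2, 32.6 and 33.9 FPKM in R108 (log2 change −2.75, adjusted p = 8.08e-08). An alpha amylase domain protein (Medtr1g019480), of the starch-cleaving enzymes, had 8.78, 6.93 and 8.4 FPKM in hsfa9-1, and 162, 154 and 157 FPKM in R108 (log2 change −4.14, adjusted p = 8.34e-08). All mutant libraries were lower at these loci by wide margins. Over 12 tested loci of ADP-glucose pyrophosphorylase and starch synthase, 8 fell and 1 rose, and their summed level was 327 ± 7.14 FPKM in hsfa9-1 and 636 ± 14.7 FPKM in R108 (SD, n = 3 each).

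Sucrose synthases, which cleave sucrose for starch and wall synthesis, summed to 25.2 ± 1.94 FPKM in hsfa9-1 and 157 ± 6.80 FPKM in R108 (SD, n = 3 each). Of 5 tested loci 3 fell and none rose, led by Medtr2g044070, with 13.5, 11.9 and 11.2 FPKM in hsfa9-1, against 102, 99.5 and 90.9 FPKM in R108 (log2 change −2.9, adjusted p = 5.46e-08). Trehalose-phosphate phosphatases, which form trehalose from its signalling precursor, summed to 77.2 ± 3.52 FPKM in hsfa9-1 and 19.2 ± 1.86 FPKM in R108. Of their 5 tested loci 4 rose and none fell, and Medtr4g036090 had 44.7, 40.5 and 44.6 FPKM in hsfa9-1, compared with 5.61, 5.19 and 5.23 FPKM in R108 (log2 change 2.8, adjusted p = 1.24e-08). Trehalose-6-phosphate synthases rose at 5 and fell at 2 of 7 loci, and the most abundant, Medtr8g105740, had 258, 248 and 235 FPKM in hsfa9-1, and 115, 111 and 114 FPKM in R108 (log2 change 1.12, adjusted p = 9.96e-08). The genotypes did not overlap at any of the 3 loci named here. Over the full list of trehalose, sucrose and starch loci, 19 rose (32.2%) and 23 fell (39.0%) of 59, with a median of −0.09. Of all tested loci 27.6% rose and 31.9% fell.

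Central carbon and energy metabolism leaned downward. Of 114 tested loci of glycolysis, the glyoxylate and TCA cycles and fermentation, 62 fell (54.4%) and 22 rose (19.3%), with a median of −0.34. The shares over all tested loci were 31.9% and 27.6%, with a median of −0.04. Glyoxysomal malate synthase (Medtr8g028225), the glyoxylate cycle enzyme that germinating seeds use to turn oil into sugar, was the list's most abundant locus and had 247, 238 and 213 FPKM in hsfa9-1, against 1649, 1884 and 1656 FPKM in R108 (log2 change −2.89, SE 0.15, adjusted p = 1.21e-07). Isocitrate lyase (Medtr4g046757), its partner in that cycle, had 7.65, 7.26 and 7.42 FPKM in hsfa9-1, compared with 21.3, 19.9 and 22.1 FPKM in R108 (log2 change −1.39, adjusted p = 1.13e-06). The peroxisomal citrate synthase Medtr5g091930, which feeds the cycle, had 128, 114 and 128 FPKM in hsfa9-1, and 18.6, 17.5 and 17.7 FPKM in R108 (log2 change 2.71, adjusted p = 6.12e-09). The mutant was therefore lower at malate synthase and isocitrate lyase and higher at citrate synthase, with no overlap in any case.

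Both tested pyruvate decarboxylases, the first step of ethanol fermentation, fell. Medtr7g069500 had 0.54, 0.61 and 0.72 FPKM in hsfa9-1, against 12, 12.4 and 12.3 FPKM in R108 (log2 change −3.03, adjusted p = 5.55e-08), and Medtr2g015560 had 4.62, 3.79 and 4.4 FPKM in hsfa9-1, compared with 32.2, 33.4 and 34.6 FPKM in R108 (log2 change −2.71, adjusted p = 6.81e-09). The 6-phosphofructokinase Medtr6g090130, a control step of glycolysis, had 4.55, 5.48 and 5.38 FPKM in hsfa9-1, and 49.8, 47.4 and 56.8 FPKM in R108 (log2 change −3.09, adjusted p = 2.91e-07). No library of hsfa9-1 reached the R108 range at these loci. In the same list, a class III alcohol dehydrogenase family locus, Medtr1g069430, rose, with 40.8, 44.5 and 37 FPKM in hsfa9-1, against 5.21, 5.18 and 4.69 FPKM in R108 (log2 change 2.79, adjusted p = 1.21e-08). A part of this locus in fermentation was not tested.

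**Figure D3:**
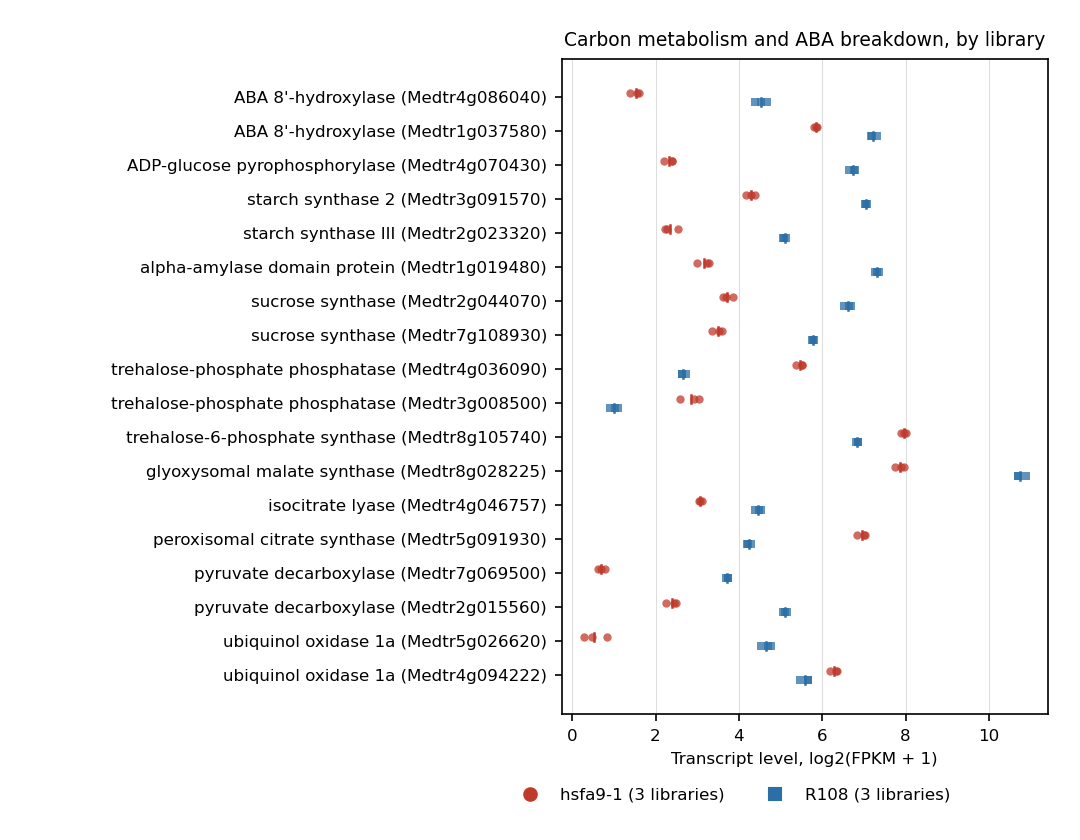
Level of 18 loci of ABA breakdown, starch, sucrose, trehalose, glyoxylate cycle, fermentation and respiration in each library, as log2(FPKM + 1) on the horizontal axis. For each locus hsfa9-1 (red circles) is drawn above R108 (blue squares), with a short bar at the mean of 3 libraries. Red lies to the right of blue for the trehalose enzymes, citrate synthase and Medtr4g094222, and to the left elsewhere.

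Mitochondrial respiration had the smallest share of rises of the 33 lists, with 7 of 65 loci higher (10.8%), 41 lower (63.1%) and a median of −0.36. After median centring 8 were higher and 34 lower. Before it, 27.6% of all tested loci were higher and 31.9% lower. Of 25 tested loci described as NADH-ubiquinone oxidoreductase (complex I) or NADH dehydrogenase, 21 fell and 1 rose, and they summed to 1474 ± 74.7 FPKM in hsfa9-1 and 2209 ± 164 FPKM in R108 (SD, n = 3 each). Most of these falls were under 1 in size, but Medtr8g012945 fell by 1.31 and Medtr2g026500 by 1.02. The largest fall was that of the B12 subunit locus Medtr4g134550, with 0.72, 0.97 and 0.72 FPKM in hsfa9-1, compared with 44.1, 61.1 and 44.5 FPKM in R108 (log2 change −4.8, SE 0.29, adjusted p = 2.79e-07). Its mutant libraries were all below 1 FPKM. The most abundant member, Medtr3g104310, had 628, 532 and 614 FPKM in hsfa9-1, and 853, 1005 and 885 FPKM in R108 (log2 change −0.63, adjusted p = 1.65e-04), also without overlap. Cytochrome c oxidase subunits fell at 4 and rose at 2 of 9 loci.

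The alternative oxidases, described as ubiquinol oxidases, which pass electrons to oxygen without pumping protons, went in opposite directions. Medtr5g026620 had 0.21, 0.40 and 0.79 FPKM in hsfa9-1, against 25, 26.2 and 22 FPKM in R108 (log2 change −4.13, adjusted p = 5.43e-07), while Medtr4g094222 with the same description had 78.9, 71.9 and 80.7 FPKM in hsfa9-1, compared with 43.4, 49.6 and 49.3 FPKM in R108 (log2 change 0.69, adjusted p = 7.39e-05). The first was lower and the second higher in every mutant library. Summed over the 3 tested loci, the level was 84.9 ± 5.56 FPKM in hsfa9-1 and 77.0 ± 3.79 FPKM in R108 (SD, n = 3 each).

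Transporters of nitrogen compounds leaned upward and water channels downward in number. Amino acid and peptide/nitrate transporters rose at 42 (50.6%) and fell at 22 (26.5%) of 83 loci, against 27.6% and 31.9% of all tested loci. Their median was 0.43, and they summed to 1812 ± 13.9 FPKM in hsfa9-1 and 1142 ± 20.0 FPKM in R108 (SD, n = 3 each). The amino acid transporter Medtr3g110660 had 307, 302 and 319 FPKM in hsfa9-1, and 42.5, 45 and 49.6 FPKM in R108 (log2 change 2.74, adjusted p = 9.34e-09). The peptide transporter Medtr7g098220 had 30.1, 25.6 and 29.6 FPKM in hsfa9-1, against 0.98, 0.86 and 1.21 FPKM in R108 (log2 change 3.87, adjusted p = 5.52e-09). The mutant was higher at both without overlap.

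Aquaporins fell at 10 (58.8%) and rose at 4 (23.5%) of 17 loci, against 31.9% and 27.6% of all tested loci. Their median was −0.40, while their summed level was 6221 ± 245 FPKM in hsfa9-1 and 4572 ± 168 FPKM in R108 (SD, n = 3 each). The sum was carried by Medtr6g069040, given above, which rose by 1.23. Among the falls, Medtr3g070210 had 8.17, 7.45 and 8.5 FPKM in hsfa9-1, compared with 127, 157 and 133 FPKM in R108 (log2 change −3.95, adjusted p = 1.93e-07), and the tonoplast intrinsic protein Medtr7g103030, a vacuolar water channel, had 0.30, 0.30 and 0.38 FPKM in hsfa9-1, and 14.1, 13 and 10.8 FPKM in R108 (log2 change −3.35, adjusted p = 4.65e-08). Both were lower in each mutant library.

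Sugar transporters rose at 12 (35.3%) and fell at 14 (41.2%) of 34 loci, against 27.6% and 31.9% of all tested loci. Beside Medtr1g029380, given above, the sucrose transporter Medtr6g043880 had 64.5, 66 and 80.3 FPKM in hsfa9-1, against 7.95, 6.23 and 7.06 FPKM in R108 (log2 change 3.14, adjusted p = 2.94e-08), higher in every mutant library. ABC transporters rose at 26 (35.1%) and fell at 21 (28.4%) of 74, near those shares. Their largest rise was that of the B family locus Medtr1g086080, with 87.3, 82.6 and 85.9 FPKM in hsfa9-1, compared with 4.36, 3.27 and 4.38 FPKM in R108 (log2 change 4.12, adjusted p = 1.58e-09). Nucleotide salvage and nucleoside transport loci fell at 13 (46.4%) and rose at 6 (21.4%) of 28, with a median of −0.21. The equilibrative nucleoside transporter Medtr2g011600, which moves uridine and other nucleosides across membranes, had 0.30, 0.20 and 0.25 FPKM in hsfa9-1, and 66.2, 57 and 66 FPKM in R108 (log2 change −5.68, adjusted p = 2.21e-06). Its genotypes lay far apart.

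Of the enzymes of specialised metabolism, 77.5% of cytochrome P450 loci and 73.7% of UDP-glycosyltransferases were called, against 59.5% of all tested loci. Cytochrome P450 loci rose at 52 and fell at 41 of 120, with a median of 0.21, and UDP-glycosyltransferases rose at 42 and fell at 31 of 99, with a median of 0.11. The P450 monooxygenase Medtr2g072260 had 84.4, 92.9 and 85.6 FPKM in hsfa9-1, against 8.16, 8.42 and 9.59 FPKM in R108 (log2 change 3.19, adjusted p = 5.35e-09). The UDP-glucosyltransferase Medtr7g067120 had 68.3, 60.2 and 67.1 FPKM in hsfa9-1, compared with 0.97, 1.78 and 1.63 FPKM in R108 (log2 change 4.76, adjusted p = 5.35e-09), while Medtr7g117405 of the same description had 23.9, 23.7 and 23.9 FPKM in hsfa9-1, and 164, 160.3 and 166 FPKM in R108 (log2 change −2.73, adjusted p = 2.63e-09). The first pair was higher and the last lower in each mutant library.

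Lipases, lipoxygenases and lipid transfer proteins rose at 35 (36.5%) and fell at 29 (30.2%) of 96 loci, against 27.6% and 31.9% of all tested loci. Their summed level was 5024 ± 247 FPKM in hsfa9-1 and 2234 ± 106 FPKM in R108 (SD, n = 3 each). The most abundant lipid transfer protein, Medtr4g027800, had 1320.3, 1354 and 1457 FPKM in hsfa9-1, against 299, 348 and 371 FPKM in R108 (log2 change 2.02, adjusted p = 3.40e-08). In the suberin, cutin and wax list 10 of 24 loci rose (41.7%) and 7 fell (29.2%). A long-chain acyl-CoA synthetase of that list (Medtr5g076240) had 146, 139.7 and 173 FPKM in hsfa9-1, compared with 21.4, 20.3 and 19.3 FPKM in R108 (log2 change 2.84, adjusted p = 7.85e-09). This synthetase and the lipid transfer protein were higher in the mutant without overlap. Coat marker words, whose sums were higher in the mutant with their leading pair and lower without it, are given above, and their part in these rises was not tested.

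Proteases rose and fell in shares near those of all tested loci, of which 27.6% rose and 31.9% fell. Proteases rose at 97 and fell at 100 of 307 loci, which turned to 109 and 84 after median centring, and protease inhibitors rose at 9 and fell at 10 of 25. The isoaspartyl peptidase/L-asparaginase Medtr1g018760, which releases nitrogen from asparagine, had 2170.2, 2108 and 2298 FPKM in hsfa9-1, and 287, 350.4 and 309.6 FPKM in R108 (log2 change 2.8, adjusted p = 1.14e-08). A carboxy-terminal processing peptidase-like locus, Medtr1g052135, had 109, 109 and 115 FPKM in hsfa9-1, against 7.55, 6.18 and 7.21 FPKM in R108 (log2 change 3.82, adjusted p = 2.66e-09). All 5 tested Bowman-Birk trypsin inhibitors, a family of legume seed inhibitors, fell, and Medtr7g077340 had 16.3, 10.9 and 9.95 FPKM in hsfa9-1, compared with 137, 141 and 155 FPKM in R108 (log2 change −3.47, adjusted p = 5.46e-08). Mutant libraries were higher at both peptidases and lower at the inhibitor, with no overlap. The Bowman-Birk loci lie next to each other by their names, and reads of similar copies may have been shared.

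Calcium and phosphatase signalling lists were close to the background of all loci, and receptor-like kinases had more rises than falls. Calcium sensors and kinases rose at 53 (32.1%) and fell at 57 (34.5%) of 165 loci, against 27.6% and 31.9% of all tested loci. After median centring they had 58 rises and 53 falls. PP2C phosphatases, among them the negative regulators of abscisic acid signalling, rose at 8 (24.2%) and fell at 10 (30.3%) of 33. LRR receptor-like kinases rose at 34 (41.0%) and fell at 26 (31.3%) of 83. The CBL-interacting kinase Medtr8g024600, of kinases that calcium sensors activate, had 0.97, 1.34 and 1.18 FPKM in hsfa9-1, and 32.4, 38.7 and 32.9 FPKM in R108 (log2 change −4.04, adjusted p = 4.52e-08). The LRR receptor-like kinase Medtr2g074980 had 9.72, 8.78 and 13 FPKM in hsfa9-1, against 0, 0.020 and 0.020 FPKM in R108 (log2 change 3.49, adjusted p = 1.45e-08). The kinase was lower and the receptor higher in all mutant libraries. The receptor, at or near 0 in R108, entered the test through the mutants, so its p-value is no separate support for the rise. Among EF hand loci, Medtr3g089070 had 7.95, 0 and 6.41 FPKM in hsfa9-1, compared with 68, 60 and 77.7 FPKM in R108, so that 1 mutant library was listed at 0 beside low values in the others.

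The balance of rises and falls differed between RNA-processing lists, and for translation and splicing it depended on the scaling. Pentatricopeptide repeat (PPR) proteins, which edit, cut and stabilise transcripts of mitochondria and plastids, rose at 138 (31.2%) and fell at 42 (9.48%) of 443 loci. The share of rises was near the 27.6% of all tested loci, while the share of falls was below their 31.9%, and 263 loci were not called. The list's median was 0.13, and its members summed to 4637 ± 91.8 FPKM in hsfa9-1 and 3798 ± 79.5 FPKM in R108 (SD, n = 3 each). The most abundant, Medtr3g465390, had 175, 173 and 171 FPKM in hsfa9-1, and 65.8, 53.3 and 62.4 FPKM in R108 (log2 change 1.5, adjusted p = 8.60e-08), without overlap. Translation factors and tRNA synthetases fell at 70 (39.1%) and rose at 44 (24.6%) of 179 loci, and after median centring fell at 53 and rose at 52. The initiation factor SUI1 locus Medtr2g083180 had 1808, 1773 and 1906 FPKM in hsfa9-1, against 3416, 3512 and 3505 FPKM in R108 (log2 change −0.93, adjusted p = 5.70e-07), lower in every mutant library. Splicing factors and RNA helicases fell at 63 (30.0%) and rose at 37 (17.6%) of 210 loci, but after median centring rose at 54 and fell at 50. Within them the U1 small nuclear ribonucleoprotein C-like locus Medtr1g088990, part of the particle that reads 5' splice sites, had 1.19, 2.32 and 1.47 FPKM in hsfa9-1, compared with 21.9, 24.8 and 21.8 FPKM in R108 (log2 change −3.18, adjusted p = 1.19e-07), again with no overlap.

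**Figure D4:**
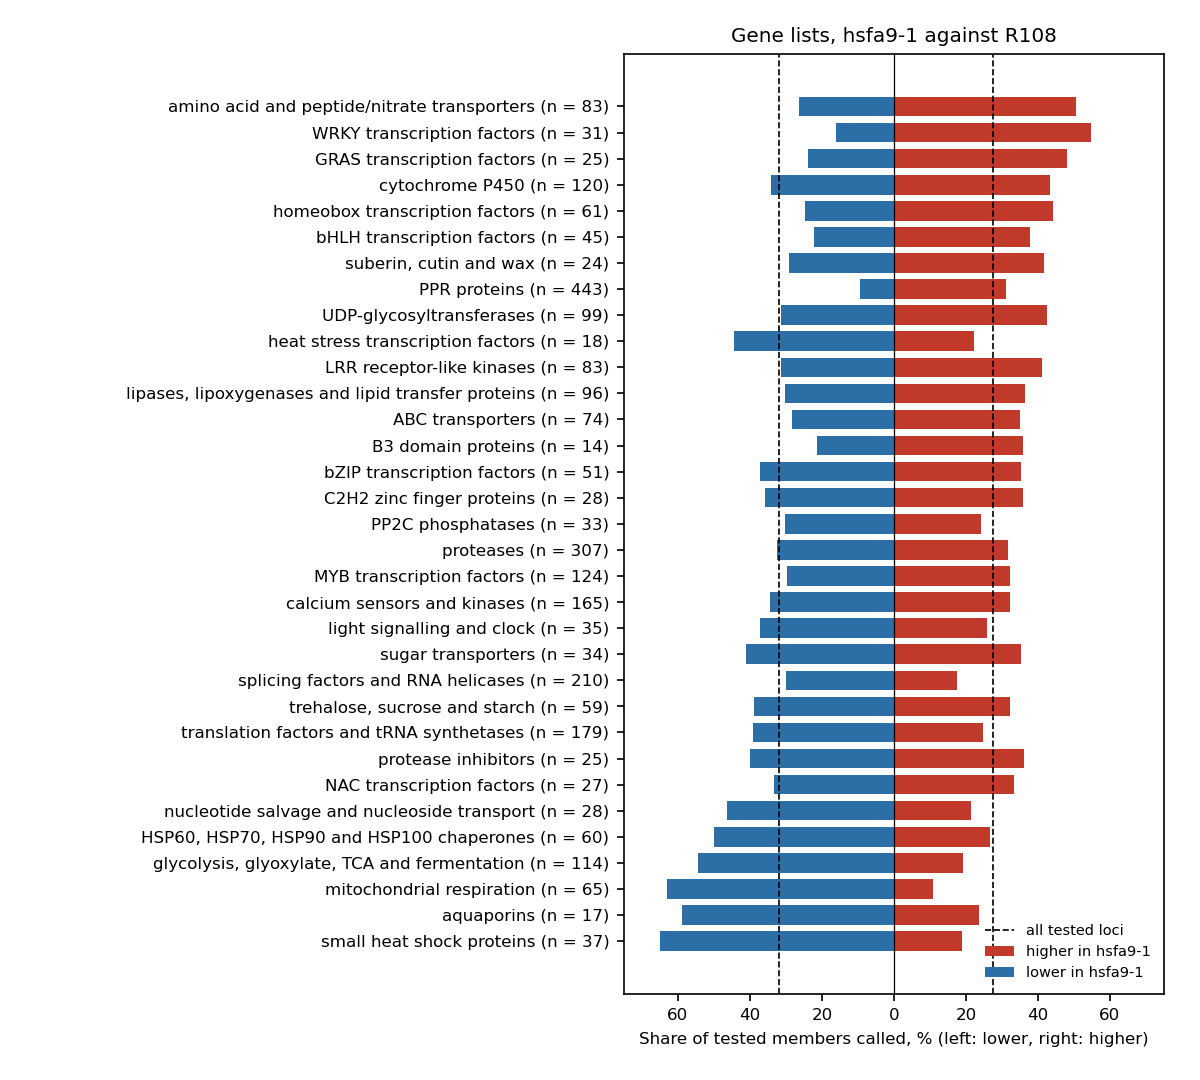
Share of the tested members of each of 33 gene lists that was called higher (red, to the right) or lower (blue, to the left) in hsfa9-1, in percent, with the number tested in brackets and lists ordered by median change. Dashed lines mark the shares over all tested loci, 27.6% higher and 31.9% lower. Small heat shock proteins and mitochondrial respiration have the largest shares of falls, 64.9% and 63.1%.

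Changed loci were spread over all chromosomes, as read from the locus names. The share of tested loci that rose lay between 26.3% (chromosome 1) and 30.4% (chromosome 5), and the share that fell lay between 28.6% (chromosome 6) and 33.9% (chromosome 1). There was no run of 3 or more neighbouring expressed loci listed at 0 in all mutant libraries. In several places at least 3 neighbouring tested loci changed the same way by at least 2. One such run of 5 loci, between Medtr5g098730 and Medtr5g098785, fell by 2.40 to 6.13 on the log2 scale and held light-harvesting complex I proteins and a transmembrane 9 family protein. Another, between Medtr6g022000 and Medtr6g022100, held a class I small heat shock protein and BCL-2 binding athanogene loci, and a further one, between Medtr4g088445 and Medtr4g088475, class I small heat shock proteins. Runs that rose held cytochrome P450 loci (Medtr2g072250 to Medtr2g072270) and polygalacturonase inhibitors (Medtr7g023630 to Medtr7g023690). Neighbouring copies of a family may share reads.

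Few of these changes parted hsfa9-1 from the second insertion line. The contrast of hsfa9-1 with hsfa9-2 called 196 loci (1.12%), and 99 loci (0.565%) differed in the same direction from both R108 and hsfa9-2. The second count depended on single libraries and lay between 52 and 71 when any one library of hsfa9-1 or R108 was left out. It was 107 without the first hsfa9-2 library, in which transcripts near 0 in the other mutant libraries were higher, and 50 when transcript models were tested in place of loci. The P-loop hydrolase locus Medtr8g066210 had 18.2, 19.2 and 17.4 FPKM in hsfa9-1, 2.71, 2.91 and 2.87 FPKM in hsfa9-2 and 0, 0.060 and 0.060 FPKM in R108 (2.33 against hsfa9-2, adjusted p = 4.54e-06). The MYB factor Medtr4g478180 had 3.89, 4.15 and 3.99 FPKM in hsfa9-1, 0.43, 0.43 and 0.31 FPKM in hsfa9-2 and 0, 0 and 0 FPKM in R108 (1.85 against hsfa9-2, adjusted p = 8.74e-05). At both loci hsfa9-1 was highest in every library, and R108 was at or near 0. Medtr4g478180 passed the filter on low values through hsfa9-1 alone, and Medtr8g066210 through the mutants. Their p-values are therefore no separate support for their high levels there.

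Storage proteins were among the loci lower in hsfa9-1 than in both other genotypes. The 2S albumin Medtr2g083110, a sulphur-rich storage protein, had 1985, 1333 and 1575 FPKM in hsfa9-1, 3182, 3353 and 3128 FPKM in hsfa9-2 and 3131, 3934 and 2944 FPKM in R108 (−1.0 against hsfa9-2, adjusted p = 0.00885). The vicilin Medtr1g103400, a storage globulin, had 336, 258 and 336 FPKM in hsfa9-1, 681, 527 and 586 FPKM in hsfa9-2 and 1193, 905 and 1034 FPKM in R108 (−0.95 against hsfa9-2, adjusted p = 0.00848). The flavin-binding monooxygenase-like locus Medtr2g450310 had 1.23, 1.14 and 1.01 FPKM in hsfa9-1, 5.04, 4.57 and 4.06 FPKM in hsfa9-2 and 21.2, 27.1 and 23.9 FPKM in R108 (−1.38 against hsfa9-2, adjusted p = 4.08e-04). Each hsfa9-1 library lay below each library of the other genotypes at these loci. The mutants share the same R108 libraries as their reference, so their changes are not independent of each other.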

How the data were processed

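Mature seed RNA was sequenced as 50 bp reads on a BGISEQ-500, at about 24 M reads a library, per the labels' protocols. As deposited by the authors, the table lists FPKM with 2 decimals for 42631 transcript models, which are values per length of transcript and per library size. HISAT, HISAT2, Bowtie2 and RSEM are named in the submitters' processing notes, without versions or roles. Neither build nor annotation nor filter is given in the sources used here. No counts were used, so the absolute depth is unknown and no counting interval is given. Low FPKM values fell on shared steps: of models between 0.1 and 0.6 FPKM in a library and in R108 replicate 1, 17.6% to 20.1% had a ratio within 4% of 1 and 2.87% to 4.05% a ratio between 1.08 and 1.16, so that a fragment was worth about the same in each library.

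FPKM was summed per locus (36695 loci, 4262 with several models), and those reaching 1 FPKM in 3 or more of 9 libraries were tested as log2(FPKM + 1), a scale that understates ratios at low FPKM. A locus under 1 FPKM in all libraries of a genotype entered the test through the other genotypes. The p-value of such a locus is no separate support for its change. A single fit of all 9 libraries was made with limma 3.58.1, with trend and robust moderation (R 4.3.3, statmod 1.5.0), which was also tested on simulated data. The contrasts were hsfa9-1 minus R108 and hsfa9-1 minus hsfa9-2. Benjamini-Hochberg adjustment was over 17508 loci and the threshold 0.05. All adjusted p-values are from limma. They set a difference of means against a moderated spread between libraries of a genotype, shared over all 9 libraries. That spread does not cover differences between independent insertion lines. The smallest exact permutation p of 3 against 3 libraries is 0.1, so no such test was used. The pseudocount, filter, scaling, moderation, unit (locus or model) and replicate block were varied. Each hsfa9-1 and R108 library was left out in turn, and of the hsfa9-2 libraries only the first.

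The 33 gene lists and the marker lists were word patterns on the authors' descriptions, refined on the descriptions, and had no test of their own. The lists were the transcription factor families (heat stress, WRKY, NAC, MYB, bHLH, bZIP, B3, homeobox, GRAS and C2H2), chaperones, light signalling, transport, metabolism, proteolysis, signalling and RNA-processing lists given in the results. Members, lists and tests were chosen with earlier results of these data known. Named loci had an informative description and were the 15 largest rises and falls without overlap of the genotypes, the 10 largest gains and losses of FPKM, per list the 2 largest rises and falls and the most abundant member, the 6 per direction that differed most from both other genotypes, and all tested heat stress factors. Loci of the subgroups, the loci of the largest relative losses and gains outside this rule and the loci listed at 0 were chosen after their values were seen. No sequence and no gene table other than the authors' own was used.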

Additional observations from a re-analysis of the deposited data

Results flagged for a closer look

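The difference of hsfa9-1 from the other insertion line was tested by the contrast between them, and it singled out 99 loci that also differed from R108 in the same direction. Differences are on the log2 scale, hsfa9-1 minus hsfa9-2, and adjusted p-values are from limma. In the higher direction the largest belonged to a putative transmembrane protein (Medtr7g033305, 2.90), a C2H2-type zinc finger protein (Medtr1g077120, 2.43) and a P-loop nucleoside triphosphate hydrolase (Medtr8g066210, 2.33). They were followed by an RsbQ-like protein (Medtr3g045440, 1.89), a MYB factor (Medtr4g478180, 1.85) and an MFS transporter (Medtr1g111540, 1.72). The first of these varied most within hsfa9-1, with 26.6, 19.7 and 7.38 FPKM, against 1.09, 1.41 and 1.28 FPKM in hsfa9-2 and 1.4, 1.82 and 1.95 FPKM in R108. The MYB factor Medtr4g478180 passed the filter through hsfa9-1 alone, as given above.

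In the lower direction a glycoside hydrolase family 1 protein (Medtr4g023000) and a GDP-fucose protein O-fucosyltransferase (Medtr2g038320) both differed by −1.52. A flavin-binding monooxygenase-like protein (Medtr2g450310) differed by −1.38, a putative transmembrane protein (Medtr4g031230) by −1.25, the 2S albumin Medtr2g083110 by −1.0 and the vicilin Medtr1g103400 by −0.95. For Medtr2g038320 the levels were 3.14, 3.4 and 3.22 FPKM in hsfa9-1, 9.94, 11.4 and 12.5 FPKM in hsfa9-2 and 17, 18.2 and 20.4 FPKM in R108. Each group held 3 libraries, too few for a check of single libraries against their group.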

How the results depend on the processing

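Over 17 alternatives, the counts of changed, higher and lower loci stayed within 1.5 times their reported values. All changed loci numbered between 7579 (mean of at least 5 FPKM) and 10839 (the 6 hsfa9-1 and R108 libraries alone). Leaving out single libraries of hsfa9-1 or R108 gave 9418 to 9648, and leaving out the first hsfa9-2 library gave 10551. Loci changed by at least 1 numbered 1414 with a pseudocount of 5, 3880 with 0.1 and 1862 with a mean of at least 5 FPKM. The count differing from both other genotypes was 50 with transcript models and 52 to 107 without single libraries. The mean of at least 5 FPKM, under which fewer loci are tested, also left fewer changed members in WRKY (12), B3 (5) and GRAS (11) factors, sugar transporters (14), aquaporins (9), amino acid and peptide/nitrate transporters (32), ABC transporters (27), nucleotide salvage (12), cytochrome P450 (56), UDP-glycosyltransferases (43), lipases and lipid transfer proteins (32), suberin, cutin and wax (10), LRR receptor-like kinases (28) and PPR proteins (119). Of 245 named loci, 228 kept direction and call under every alternative in which they were tested, which with a mean of at least 5 FPKM was 189 loci. Signs turned at a pair of loci that were not called, the chaperonin Medtr1g017380 (0.02 after median centring) and the heat stress factor Medtr5g029680 (−0.01 without hsfa9-1 replicate 3, and up to 0.11 without other single libraries), and the cause was not tested. Replicate numbers did not pair the libraries, since deviations of same-numbered libraries correlated at −0.0258, −0.0568 and −0.0129 and 0 of 3 matched best with its own number, and a fit with the replicate block called 10213 loci. Levels under about 1 FPKM rest on few fragments, and the absolute depth is unknown.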
